A study of Homo sapiens with 12 samples.

Results

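The expression of 35 genes of cholesterol and fatty acid synthesis was followed in HCT116 cells, a human colorectal carcinoma line, after the depletion of SDS22, a regulator of the protein phosphatase PP1 that is encoded by PPP1R7. The genes were the rows of the table of read counts whose symbol was in a list of the enzymes of both routes, of proteins that carry or bind sterols and of the SREBP transcription factors with their regulators. All 35 were found among the 58233 genes of the table, and all 35 passed the filter on low counts that left 16657 genes for testing. RNA was taken from parental cells, which are HCT116 Tet-OsTIR1 cells that carry the rice F-box protein OsTIR1 under the control of doxycycline (Dox), and from SDS22-degron cells, a line grown from isolated colonies of these cells in which the PPP1R7 alleles also carry the mAID-mClover tag. Cells of each line were left untreated or were given Dox (2 µg/ml) together with the auxin indole-3-acetic acid (IAA, 500 µM) over 48 h, which directs the tagged protein to degradation. There were 3 libraries in each of the 4 groups, and treated parental cells had received the same Dox/IAA and also express OsTIR1. Each genotype was represented by a single line, so that a difference of genotype and any other difference between the lines, also in their response to Dox/IAA, cannot be told apart.

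Cholesterol and fatty acids are both built from acetyl-CoA, the former through mevalonate and squalene, and the latter through malonyl-CoA and fatty acid synthase. The genes of both routes are switched on by SREBP2 and SREBP1, which are made as precursors in the membrane of the endoplasmic reticulum. When sterols are scarce, SCAP escorts the precursors to the Golgi apparatus, where proteases release the active fragment, and when sterols are abundant the INSIG proteins hold SCAP back. SREBF1 is in addition a target of the liver X receptors (LXRs), which are activated by oxidised sterols and also switch on the exporters of cholesterol.

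SREBPs bind to sterol regulatory elements in promoters, commonly next to binding sites of NF-Y and Sp1. RefSeq promoter windows of GRCh38.p14, from 250 bases before to 50 bases after an annotated start, were available for 31 of the 35 genes. The letters TCACNCCAC, a sterol regulatory element, were searched on both strands and were found in 1 of these genes, SREBF2, against 1.39% of the 27305 genes with a window. The NF-Y box CCAAT was present in 22 of the 31 genes (71%), including 8 of 9 genes between squalene and cholesterol, against 39.7% of all genes. The Sp1 box GGGCGG was present in 30 of 31 genes (96.8%), against 48.3% of all genes. The windows are of 1 fixed length, the motifs do not share letters, and a match is a description of the sequence only. TCACNCCAC was the only form of the sterol regulatory element searched, so other forms in these windows would be missed. The 200 bases before the start are shown for SREBF2, the gene with these letters, and for TMEM97, the member that fell most by Dox/IAA in SDS22-degron cells. They are also shown for MSMO1, TM7SF2 and STARD4, the members that rose most. Capitals mark TCACNCCAC and CCAAT in either orientation, and Sp1 boxes are left in lower case.
SREBF2, chr22:41832905-41833104, plus strand: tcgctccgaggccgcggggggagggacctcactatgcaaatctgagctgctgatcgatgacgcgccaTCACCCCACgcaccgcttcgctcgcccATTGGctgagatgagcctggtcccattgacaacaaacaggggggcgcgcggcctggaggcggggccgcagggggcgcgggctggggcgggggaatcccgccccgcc
MSMO1, chr4:165327469-165327668, plus strand: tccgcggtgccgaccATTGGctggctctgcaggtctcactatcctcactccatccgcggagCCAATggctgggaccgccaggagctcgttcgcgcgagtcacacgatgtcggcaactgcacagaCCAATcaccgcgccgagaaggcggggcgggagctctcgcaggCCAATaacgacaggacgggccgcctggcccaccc
TM7SF2, chr11:65111672-65111871, plus strand: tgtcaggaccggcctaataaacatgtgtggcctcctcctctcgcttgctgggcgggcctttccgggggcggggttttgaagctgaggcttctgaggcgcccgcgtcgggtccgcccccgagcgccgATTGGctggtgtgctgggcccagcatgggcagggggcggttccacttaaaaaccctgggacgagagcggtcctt
STARD4, chr5:111512536-111512735, minus strand: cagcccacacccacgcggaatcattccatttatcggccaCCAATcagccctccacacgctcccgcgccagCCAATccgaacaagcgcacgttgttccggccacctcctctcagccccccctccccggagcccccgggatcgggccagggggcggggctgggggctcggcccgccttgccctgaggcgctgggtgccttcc
TMEM97, chr17:28319000-28319199, plus strand: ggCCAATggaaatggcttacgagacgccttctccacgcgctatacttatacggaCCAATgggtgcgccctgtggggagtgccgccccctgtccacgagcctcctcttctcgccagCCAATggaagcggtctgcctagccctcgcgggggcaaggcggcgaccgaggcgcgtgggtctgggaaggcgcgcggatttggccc
In SREBF2 the sterol regulatory element lies between 133 and 125 bases before the start, followed by an inverted NF-Y box. The stretch of MSMO1 holds 4 NF-Y boxes, that of TMEM97 holds 3, that of STARD4 holds 2 and that of TM7SF2 holds 1.

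The libraries held 12133915 to 14657508 gene counts, and their normalization factors lay between 0.971 and 1.03. PPP1R7 mRNA lay between 43.7 and 47.9 CPM (counts scaled to the effective size of the library) in the means of the 4 groups, which does not check the depletion because the degron acts on the protein. All 6 epithelial markers examined were expressed, whereas PTPRC, a leukocyte marker, reached at most 1 count in a library and CD3E, a T cell marker, was at 0. Of 8 markers of other cell types, 2 had enough counts for the test, and these rose in SDS22-degron cells upon Dox/IAA: COL1A1 by 0.94 (at 9.58 to 32.7 CPM before TMM scaling) and VWF by 1.05 (at 0.243 to 1.65 CPM), and their part in the results was not tested. In bulk RNA, fewer cells of a kind and less RNA per cell cannot be told apart. The 3 libraries of treated SDS22-degron cells stood apart from each other in the lipid synthesis genes: library 3 had the highest value for 34 of the 35 genes and library 2 the lowest for 31, although library 3 was highest for 33.5% of all tested genes and library 2 lowest for 36.1%. In each other group, too, 1 library was the highest for most of the 35 genes. These were untreated parental library 1 (27 genes), treated parental library 1 (23 genes) and untreated SDS22-degron library 3 (25 genes), beside 33.3%, 34.1% and 37.8% of all tested genes. Many results that rest on the treated SDS22-degron libraries are therefore also given with single libraries left out.

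**Figure D1:**
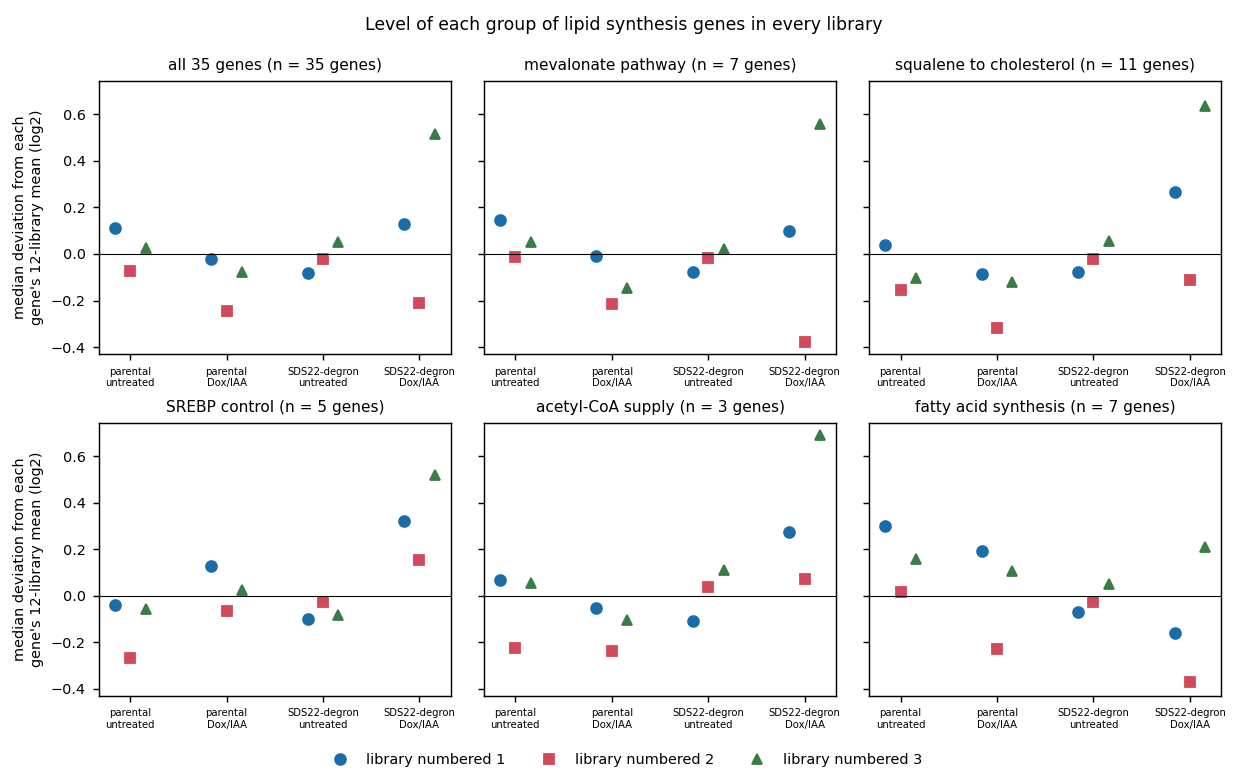
Each point is 1 library, and the vertical axis is the median over the genes of a functional group of the log2 deviation from each gene's mean over the 12 libraries. In treated SDS22-degron cells, the median over all 35 genes was 0.13 in library 1, -0.21 in library 2 and 0.52 in library 3.

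Levels of the genes were compared per kilobase of exon (RPKM, computed from the counts and the deposited gene lengths). The highest was SCD, the desaturase that makes oleic acid, with a mean of 650 RPKM over the 12 libraries. It was followed by FASN, the fatty acid synthase, at 187 RPKM, and by ACLY, which makes cytosolic acetyl-CoA from citrate, at 102 RPKM. SREBF2 and DHCR7, the last enzyme of one branch of cholesterol synthesis, came next at 65.6 and 56.4 RPKM. The lowest were FADS2, a desaturase of polyunsaturated fatty acids, at 2.45 RPKM, and AACS, which activates acetoacetate, at 1.98 RPKM. The order among close neighbours is not resolved, since SREBF2 ranged from 47.1 to 92.2 RPKM and DHCR7 from 35.6 to 94.0 RPKM over the libraries. Pseudogenes that share sequence with members took 32879 counts for SCD, 8936 for CYP51A1 and 4980 for FDPS over the 12 libraries, beside 537796, 2902 and 16100 counts on the genes themselves, so that the level of CYP51A1 in particular is uncertain.

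Many of the genes were higher in SDS22-degron than in parental cells once both had received Dox/IAA, among them 8 of the 11 genes between squalene and cholesterol. Between the treated lines, 17 of 35 genes (48.6%) were higher in SDS22-degron cells at an adjusted p under 0.05 (edgeR's quasi-likelihood test, Benjamini-Hochberg adjustment over all tested genes), beside 21.8% of all tested genes. FADS1 was the 1 gene that was lower, beside 23.1% of all tested genes. The median log2 fold change was 0.39 over the 35 genes and -0.01 over all tested genes. By contrast, the untreated lines differed in few of them: 2 genes were higher (13.2% of all tested genes) and 4 were lower (15% of all tested genes), and the median was -0.03. The libraries of the treated lines did not overlap for 10 genes that were higher and 1 that was lower in SDS22-degron cells (25.7% and 27.2% of all tested genes), and those of the untreated lines for 6 and 5 (21.6% and 21.9% of all tested genes).

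Within SDS22-degron cells, Dox/IAA raised 11 of the 35 genes (31.4%), beside 26% of all tested genes, and lowered 3, beside 25.5% of all tested genes. The median log2 fold change was 0.20 over the 35 genes. Within parental cells, 3 genes rose (15.9% of all tested genes) and 3 fell (15.7% of all tested genes), and the median was -0.13. With the library number as a replicate block, 14 genes rose in SDS22-degron cells. In parental cells 5 genes fell with this block, FDFT1 and ACACA being added. Scaling by library size alone, without normalization factors, called 3503 of all genes higher and 1958 lower in parental cells, in place of 2656 and 2608, and 3 and 2 of the 35 genes. Counted without a model, the treated libraries lay wholly above the untreated ones for 10 genes and wholly below for 3 in SDS22-degron cells (30.2% and 29.7% of all tested genes), and for 3 and 6 genes in parental cells (21.1% and 20.2% of all tested genes). The effect of Dox/IAA was significantly larger in SDS22-degron than in parental cells for 4 genes, ACSS2, MSMO1, FDFT1 and TM7SF2 (6.03% of all tested genes), and significantly smaller for 0 genes (8.35% of all tested genes). At an unadjusted p under 0.05 the difference was larger for 12 genes and smaller for 2, and DESeq2 called 5 and 0. With the replicate block, 8 were larger and 2 smaller. Regardless of the test, 31 of the 35 genes had a higher log2 fold change in SDS22-degron than in parental cells, beside 49.8% of all tested genes. For 18 genes the value was above 0 in SDS22-degron and below 0 in parental cells (12.3% of all tested genes), and for 0 genes the opposite held (12.1% of all tested genes).

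How far these counts depend on single libraries was examined by leaving libraries out. Without treated SDS22-degron library 3, 9 genes were higher and 5 were lower between the treated lines, and the median fell to 0.13. Of the 16930 genes tested in that fit, 3109 were higher and 3387 were lower. With the same library left out, Dox/IAA raised 9 genes and lowered 5 in SDS22-degron cells (3623 and 3889 of all tested genes), with a median of 0.03. The effect was larger than in parental cells for 2 genes and smaller for 2 (734 and 1216 of all tested genes). Without treated SDS22-degron library 2, 21 genes were higher between the treated lines and 21 rose in SDS22-degron cells (3333 and 4044 of 16896 tested genes). In the same fit, 13 genes had a larger effect in SDS22-degron than in parental cells (831 of all tested genes). Treated parental library 2 was the lowest of its group for 26 of the 35 genes (39.6% of all tested genes). Leaving it out left 11 genes higher between the treated lines (3349 of 16937 tested genes). The number of called genes thus differed by more than 1.5 times with the choice of libraries.

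**Figure D2:**
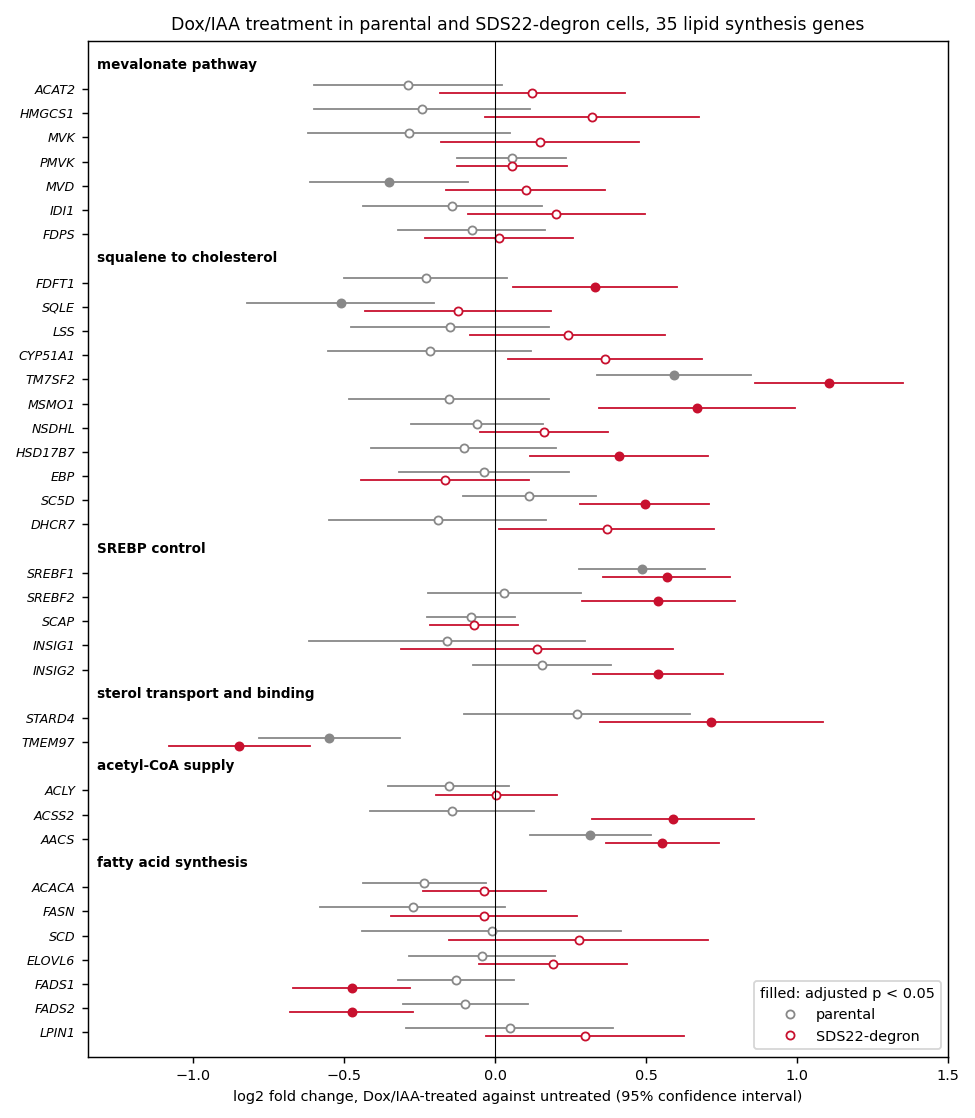
The horizontal axis is the log2 fold change of Dox/IAA-treated against untreated cells, in parental (grey) and SDS22-degron cells (red), with 95% confidence intervals, and filled points have an adjusted p under 0.05. TM7SF2 is the highest at 1.11 and TMEM97 the lowest at -0.85 in SDS22-degron cells, and the red point lies right of the grey point for 31 of 35 genes.

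The 7 genes of the mevalonate pathway convert acetyl-CoA into farnesyl diphosphate. Dox/IAA called 0 of them higher and 0 lower in SDS22-degron cells by edgeR's quasi-likelihood test (26% and 25.5% of all tested genes). At an unadjusted p under 0.05 or with DESeq2, 0 passed as well. All 7 values were nevertheless above 0, with a median log2 fold change of 0.12 (-0.10 without treated library 3). In parental cells 1 gene fell (15.7% of all tested genes) and 6 of 7 values were below 0, with a median of -0.24. Between the treated lines, 4 genes were higher (21.8% of all tested genes). These were HMGCS1, which makes HMG-CoA, by 0.50 on the log2 scale, and MVK (mevalonate kinase) by 0.40. ACAT2, the cytosolic thiolase that starts the route, and IDI1, the isopentenyl diphosphate isomerase, were each higher by 0.39. Each of these 4 calls was lost without treated SDS22-degron library 3, where the count was 0 higher and 2 lower, and also without treated parental library 2, where it was 0 higher, and each was lost as well without treated parental library 3 or treated SDS22-degron library 1. That of ACAT2 was lost as well without treated parental library 1, and that of MVK without untreated parental library 3 or any untreated SDS22-degron library. The values of HMGCS1 show the spread: 170.1, 144 and 137 CPM in untreated parental cells, 146, 111 and 124 CPM in treated parental cells, 136, 145 and 149 CPM in untreated SDS22-degron cells and 189, 113 and 236 CPM in treated SDS22-degron cells. Library 2 of the treated SDS22-degron cells lay below all the untreated libraries of that line, and libraries 1 and 3 lay above them. PMVK, the phosphomevalonate kinase, and FDPS, the farnesyl diphosphate synthase, passed the test in none of the 5 comparisons, with adjusted p of at least 0.25.

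MVD (ENSG00000167508, chr16:88651935-88663161 on the minus strand, GRCh38), which decarboxylates mevalonate diphosphate, was the member of the pathway that fell in parental cells. Its values were 107, 99.6 and 96.1 CPM in untreated parental cells, 77.3, 79.0 and 81.3 CPM in treated parental cells, 69.6, 71.7 and 80.9 CPM in untreated SDS22-degron cells and 72.8, 61.8 and 104 CPM in treated SDS22-degron cells. Untreated parental cells were above the other groups except for treated SDS22-degron library 3. MVD fell by 0.35 on the log2 scale upon Dox/IAA in parental cells (adjusted p = 0.0391), a call that was lost when any 1 of 5 libraries was left out (untreated parental 1 or 2, or any treated parental library), with values between -0.37 and -0.31. It was also lower in untreated SDS22-degron than in untreated parental cells, by 0.45 (adjusted p = 0.0112), which was lost without untreated SDS22-degron library 1 (adjusted p = 0.0536). MVD lies on chromosome 16, whose 726 tested genes had a median log2 fold change of -0.30 in that comparison, and the part of this chromosome-wide difference in the value of MVD was not tested.

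Of the 11 genes from squalene to cholesterol, Dox/IAA raised 5 in SDS22-degron cells (median log2 fold change 0.36, beside 26% of all tested genes) and 1 in parental cells, where 1 also fell (median -0.15, beside 15.9% and 15.7%). Between the treated lines 8 of 11 were higher (21.8% of all tested genes) and all 11 values were above 0, with a median of 0.48. Without treated SDS22-degron library 3, 3 rose and 1 fell in SDS22-degron cells, and 4 were higher between the treated lines.

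TM7SF2 (ENSG00000149809, chr11:65111845-65116384 on the plus strand, GRCh38), a sterol C14 reductase, changed most. Its values were 42.3, 33.5 and 39.6 CPM in untreated parental cells, 62.8, 45.7 and 65.4 CPM in treated parental cells, 40.3, 44.7 and 48.1 CPM in untreated SDS22-degron cells and 88.0, 92.6 and 106 CPM in treated SDS22-degron cells. Treated libraries lay above untreated libraries in both lines, and those of treated SDS22-degron cells lay above all others. Dox/IAA raised TM7SF2 by 1.11 on the log2 scale (95% confidence interval 0.86 to 1.35, 2.15-fold, adjusted p = 3.78e-07) in SDS22-degron cells and by 0.59 (0.34 to 0.85, adjusted p = 0.00118) in parental cells. The difference of 0.51 between these effects passed the test (adjusted p = 0.0469), and was lost when any 1 of 7 libraries was left out (0.38 to 0.61). VPS51 overlaps TM7SF2 on the same strand, so that reads in the overlap cannot be assigned to either, and VPS51 itself changed by 0.00 in SDS22-degron cells (adjusted p = 0.960).

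MSMO1 (ENSG00000052802, chr4:165327623-165343160 on the plus strand), the C4-methylsterol oxidase, rose in SDS22-degron cells by more than it changed in parental cells. It was at 131, 104 and 105 CPM in untreated parental cells, 111, 83.2 and 111 CPM in treated parental cells, 112, 125 and 113 CPM in untreated SDS22-degron cells and 184, 131 and 241 CPM in treated SDS22-degron cells. Each treated SDS22-degron library exceeded each untreated one, while the parental libraries overlapped. The log2 fold change was 0.67 (0.34 to 0.99, adjusted p = 0.00144) in SDS22-degron and -0.15 (adjusted p = 0.496) in parental cells, and the difference between them was 0.82 (0.36 to 1.29, adjusted p = 0.0179), a call that was lost without untreated parental library 1 (adjusted p = 0.0544). Between the treated lines MSMO1 had the largest difference of the 35 genes, 0.86 on the log2 scale or 1.82-fold (adjusted p = 0.000194). Without treated SDS22-degron library 3 its rise in SDS22-degron cells was 0.42 and still passed the test.

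SC5D, the sterol C5 desaturase, was at 72.4, 78.1 and 67.2 CPM in untreated and 103, 83.7 and 121 CPM in treated SDS22-degron cells, without overlap, and rose by 0.50 (adjusted p = 0.000501). HSD17B7, which reduces the C3 ketone, rose by 0.41 (adjusted p = 0.021), a call that was lost without treated library 3 (0.19) or untreated library 2 or 3 of the same line. It was also higher between the treated lines, by 0.43 (adjusted p = 0.0201), which was lost without treated SDS22-degron library 3 (0.23). NSDHL, which removes C4 carboxyl groups, was higher between the treated lines by 0.44 (adjusted p = 0.0018). This held without each library in turn, as it did for TM7SF2, MSMO1 and SC5D.

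FDFT1, the squalene synthase that commits farnesyl diphosphate to sterols, had a value of -0.35 between untreated SDS22-degron and untreated parental cells. The libraries did not overlap, but the adjusted p of 0.0526 missed the threshold, which was passed under 12 of 24 alternatives. Its values were 312, 275 and 311 CPM in untreated parental cells, 276, 215 and 274 CPM in treated parental cells, 221, 232 and 254 CPM in untreated SDS22-degron cells and 293, 226 and 369.6 CPM in treated SDS22-degron cells. In SDS22-degron cells treated library 2 lay within the range of the untreated ones, and libraries 1 and 3 lay above it. FDFT1 rose there by 0.33 (0.06 to 0.60, adjusted p = 0.0389) and had a value of -0.23 in parental cells (adjusted p = 0.188, or 0.0439 with the replicate block), with a difference of 0.56 (adjusted p = 0.0462). The call of the difference was lost when any 1 of 8 libraries was left out (0.35 to 0.72). The rise was lost without treated SDS22-degron library 3 (0.12), and without treated SDS22-degron library 1, untreated SDS22-degron library 1 or 2 or untreated parental library 1.

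SQLE, the squalene monooxygenase, was the 1 gene of this group that fell in parental cells. It was at 151, 124 and 122 CPM in untreated parental cells, 106, 78.3 and 94.3 CPM in treated parental cells, 123, 117 and 125 CPM in untreated SDS22-degron cells and 121, 77.1 and 137 CPM in treated SDS22-degron cells. The 3 treated parental libraries were below all untreated ones. SQLE fell by 0.51 on the log2 scale (-0.82 to -0.20, adjusted p = 0.0131), and the call was lost without untreated parental library 1 or treated parental library 2, where the value was -0.42 and -0.40. In SDS22-degron cells the value was -0.12 (adjusted p = 0.503), and the difference between the lines did not pass the test (adjusted p = 0.231).

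The remaining genes of this stretch were LSS, which closes the sterol ring, CYP51A1, which removes the C14 methyl group, DHCR7 and EBP, the sterol isomerase. Between the treated lines LSS was higher by 0.48, CYP51A1 by 0.52 and DHCR7 by 0.61. Without treated SDS22-degron library 3 these values were 0.19, 0.36 and 0.36 and none of the 3 passed the test, and without treated parental library 2 the calls of LSS and CYP51A1 were lost as well. EBP passed the test in none of the 5 comparisons, and its treated SDS22-degron libraries were at 67.9, 45.8 and 82.4 CPM.

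**Figure D3:**
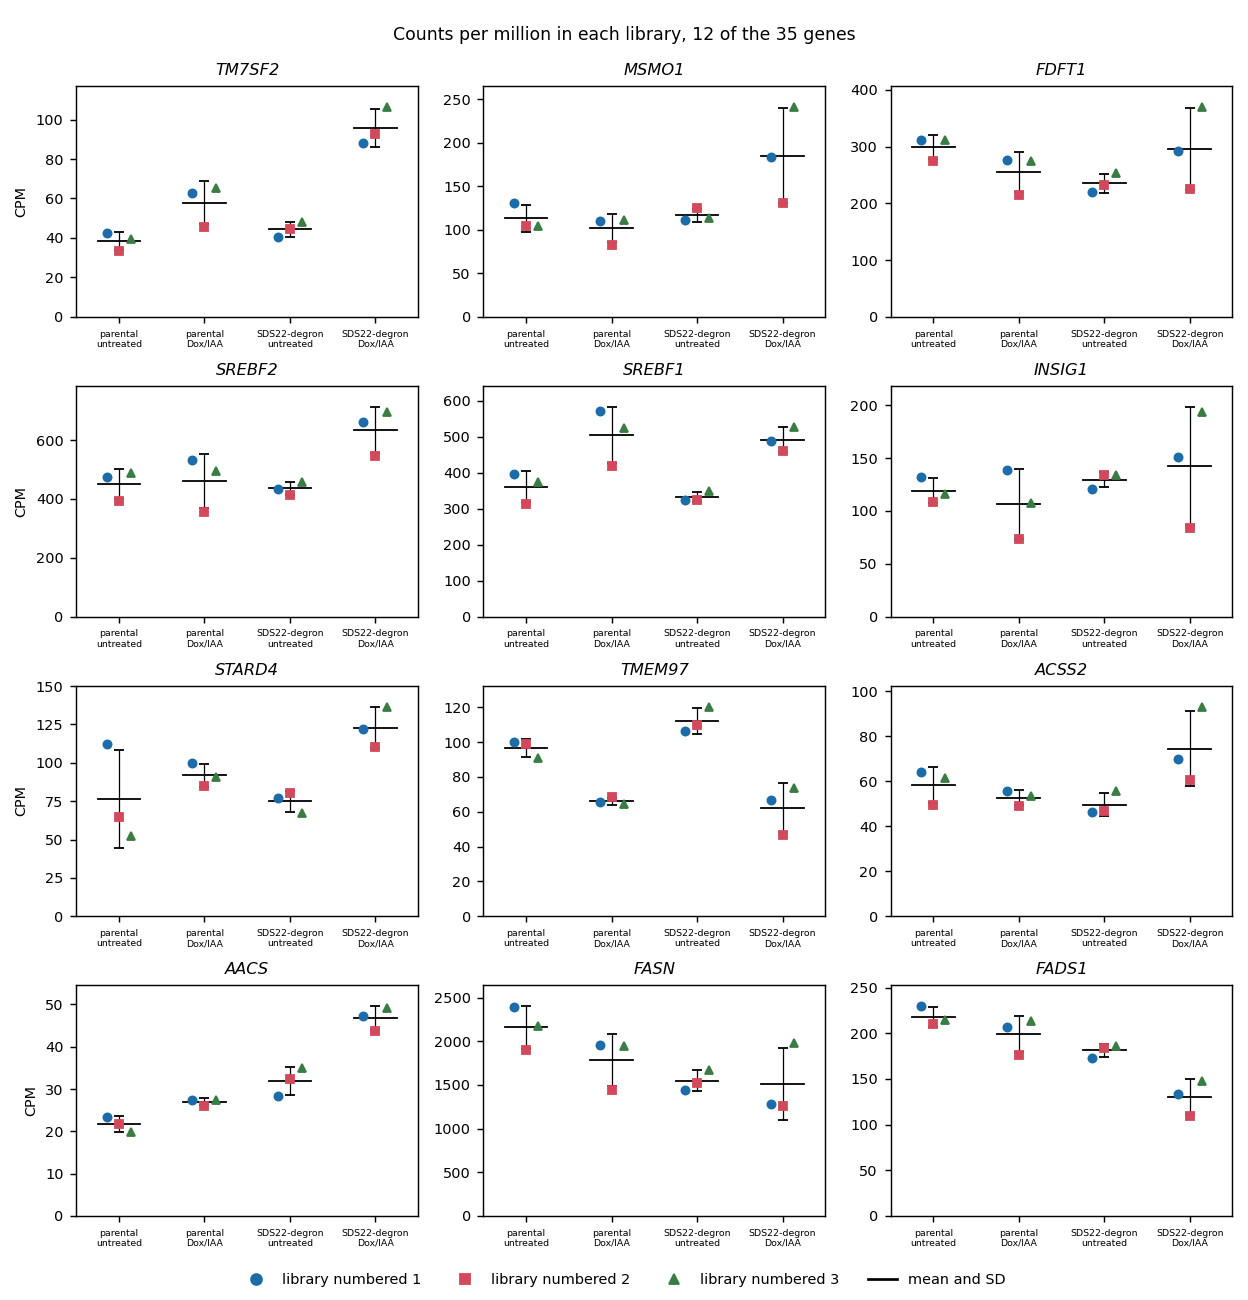
Points are CPM (TMM-normalized) in each library of the 4 groups, marked by library number, and bars are the mean and SD of 3 libraries. TM7SF2, SREBF2 and AACS in treated SDS22-degron cells lie above all other libraries, while INSIG1 in the same cells is at 151, 83.4 and 194 CPM.

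Of the 5 genes that control SREBP activity, 3 rose upon Dox/IAA in SDS22-degron cells (26% of all tested genes) and 1 rose in parental cells (15.9%). The group also had the smallest spread among the treated SDS22-degron libraries, with a median SD of 0.10 on the log2 scale, beside 0.34 over the 35 genes. SREBF2 (ENSG00000198911, chr22:41833079-41907308 on the plus strand) encodes SREBP2, the factor that mainly drives cholesterol synthesis. It was at 473, 393 and 489 CPM in untreated parental cells, 532, 356 and 495 CPM in treated parental cells, 434, 415 and 459 CPM in untreated SDS22-degron cells and 661, 546 and 697 CPM in treated SDS22-degron cells. Treated SDS22-degron libraries were all above the other 9. SREBF2 rose by 0.54 on the log2 scale (0.29 to 0.79, adjusted p = 0.00106) in SDS22-degron cells, where parental cells had 0.03 (adjusted p = 0.881). The difference between the lines, 0.51 with a confidence interval of 0.15 to 0.87, missed the threshold (adjusted p = 0.0525), and it passed under 11 of 23 alternatives, among them DESeq2 (adjusted p = 0.0277) and the replicate block (adjusted p = 0.00191), with adjusted p between 2.28e-05 and 0.132 over all of them. The rise in SDS22-degron cells was called under each alternative, with values between 0.45 and 0.64.

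SREBF1 (ENSG00000072310, chr17:17810399-17837002 on the minus strand), which encodes SREBP1 and is a target of the LXRs, followed another pattern. Its libraries were at 396, 314 and 374 CPM in untreated parental cells, 571, 419 and 526 CPM in treated parental cells, 325, 323 and 348 CPM in untreated SDS22-degron cells and 488, 461 and 528 CPM in treated SDS22-degron cells. Treated libraries were above untreated libraries in both lines. The increase was 0.57 (0.36 to 0.78, adjusted p = 0.000112) in SDS22-degron and 0.49 (0.28 to 0.69, adjusted p = 0.00124) in parental cells. These increases differed by 0.08 (95% confidence interval -0.21 to 0.38), and between the treated lines SREBF1 had a value of -0.04 (adjusted p = 0.784).

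INSIG2, a retention protein for SCAP, was at 21.5, 20.8 and 18.0 CPM in untreated and 27.8, 29.0 and 30.9 CPM in treated SDS22-degron cells and rose by 0.54 (adjusted p = 0.000247). This rise was called under each alternative, with values between 0.47 and 0.59. The values of INSIG1, the retention protein that is itself a strong SREBP target, were 132, 109 and 116 CPM in untreated parental cells, 139, 73.1 and 108 CPM in treated parental cells, 121, 134 and 134 CPM in untreated SDS22-degron cells and 151, 83.4 and 194 CPM in treated SDS22-degron cells. In both treated groups library 2 was the lowest, and INSIG1 passed the test in none of the 5 comparisons (adjusted p of at least 0.124). SCAP was even across the groups, at 92.3, 91.1 and 101 CPM in untreated parental cells, 88.1, 85.8 and 95.1 CPM in treated parental cells, 83.4, 88.9 and 94.4 CPM in untreated SDS22-degron cells and 81.7, 85.3 and 87.2 CPM in treated SDS22-degron cells, and also passed in none (adjusted p of at least 0.348).

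The sterol binding proteins moved in opposite directions. STARD4 (ENSG00000164211, chr5:111496033-111512590 on the minus strand), a carrier of cholesterol between membranes, was at 112, 64.4 and 52.2 CPM in untreated parental cells, 100.2, 85.2 and 90.5 CPM in treated parental cells, 76.8, 80.4 and 67.3 CPM in untreated SDS22-degron cells and 122, 110.3 and 137 CPM in treated SDS22-degron cells. Treated SDS22-degron libraries were all above the untreated ones, while untreated parental library 1 lay far above the others of its group. STARD4 rose by 0.72 (0.35 to 1.09, adjusted p = 0.00234) in SDS22-degron cells, and the value in parental cells was 0.27 (adjusted p = 0.267), or 0.65 (adjusted p = 0.000437) without untreated parental library 1. STARD4 had a value of 0.42 between the treated lines (adjusted p = 0.0591), which passed the test with the replicate block (0.43, adjusted p = 0.0219). TMEM97 (ENSG00000109084, chr17:28319095-28328685 on the plus strand), the sigma-2 receptor that binds sterols, was at 99.9, 99.1 and 90.6 CPM in untreated parental cells, 65.4, 68.3 and 64.2 CPM in treated parental cells, 107, 109.7 and 120.5 CPM in untreated SDS22-degron cells and 66.7, 46.8 and 73.7 CPM in treated SDS22-degron cells. The treated libraries lay below all the untreated ones in both lines. It fell by 0.85 (adjusted p = 4.54e-06) in SDS22-degron and by 0.55 (adjusted p = 0.00109) in parental cells, with a difference of -0.30 (-0.63 to 0.03) that did not pass the test (adjusted p = 0.219). Both falls were called under each alternative.

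Among the 3 genes that supply acetyl-CoA and acetoacetyl-CoA, 2 rose in SDS22-degron cells (26% of all tested genes). ACSS2 (ENSG00000131069, chr20:34872146-34927962 on the plus strand) makes acetyl-CoA from acetate and was at 64.3, 49.3 and 61.4 CPM in untreated parental cells, 55.6, 49 and 53.7 CPM in treated parental cells, 46.4, 46.7 and 55.5 CPM in untreated SDS22-degron cells and 69.8, 60.6 and 93.2 CPM in treated SDS22-degron cells. Treated SDS22-degron libraries exceeded the untreated ones of the line, and the parental libraries overlapped. ACSS2 rose by 0.59 (0.32 to 0.86, adjusted p = 0.000822) with a value of -0.14 in parental cells (adjusted p = 0.428), and its difference of 0.73 (0.35 to 1.11, adjusted p = 0.011) was the only one among the 4 called members that passed under each alternative. AACS (ENSG00000081760, chr12:125065379-125143333 on the plus strand) was at 23.5, 21.7 and 19.8 CPM in untreated parental cells, 27.5, 26.0 and 27.3 CPM in treated parental cells, 28.3, 32.3 and 34.9 CPM in untreated SDS22-degron cells and 47.4, 43.7 and 49.3 CPM in treated SDS22-degron cells. Each of the groups lay above the one before it in this order without overlap. AACS was higher in SDS22-degron than in parental cells without treatment, by 0.56 (adjusted p = 0.000233), and with treatment, by 0.80 (adjusted p = 1.37e-06). Dox/IAA raised it by 0.55 in SDS22-degron (adjusted p = 4.25e-05) and by 0.31 in parental cells (adjusted p = 0.0177), and the latter call was lost without untreated or treated parental library 3, with values of 0.25 and 0.30. Another gene that overlaps AACS on the same strand took 257 counts in the 12 libraries, beside 4940 on AACS. The values of ACLY lay between 446 and 638 CPM in all libraries and passed the test in none of the 5 comparisons.

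Of the 7 genes of fatty acid and glycerolipid synthesis, Dox/IAA raised 0 and lowered 2 in SDS22-degron cells (median log2 fold change -0.04, beside 26% and 25.5% of all tested genes), and called 0 in parental cells (median -0.10, beside 15.9% and 15.7%). At an unadjusted p under 0.05, 0 of the 7 rose and 2 fell in SDS22-degron cells, and 0 rose and 1 fell in parental cells, and DESeq2 called the same numbers as edgeR in both. FADS1 (ENSG00000149485, chr11:61799625-61829318 on the minus strand), the delta-5 desaturase of polyunsaturated fatty acids, was at 229.8, 209.8 and 214 CPM in untreated parental cells, 207, 176 and 214 CPM in treated parental cells, 173, 184 and 186 CPM in untreated SDS22-degron cells and 134, 109.6 and 148 CPM in treated SDS22-degron cells. Treated SDS22-degron libraries were below all other libraries. FADS1 fell by 0.48 (-0.67 to -0.28, adjusted p = 0.000294) in SDS22-degron cells, and between the treated lines it was lower by 0.61 (adjusted p = 3.11e-05). Both held without each library in turn. FADS2 (ENSG00000134824, chr11:61792980-61867354 on the plus strand), the delta-6 desaturase, was at 26.8, 27.1 and 27.2 CPM in untreated parental cells, 22.5, 25.9 and 27.2 CPM in treated parental cells, 30.8, 32.9 and 33.4 CPM in untreated SDS22-degron cells and 23.9, 20.1 and 26.0 CPM in treated SDS22-degron cells. It fell by the same size, 0.48 (-0.68 to -0.27, adjusted p = 0.000487), and its treated libraries did not overlap the untreated ones of the line. FADS1 and FADS2 overlap each other on opposite strands, and FADS2 overlaps FEN1, a replication nuclease, on the same strand. FEN1 fell by 1.22 in SDS22-degron cells (adjusted p = 7.31e-08), and its part in the value of FADS2 was not tested.

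FASN (ENSG00000169710, chr17:82078333-82098332 on the minus strand) is the single enzyme that builds palmitate. It was at 2392, 1905 and 2177 CPM in untreated parental cells, 1959, 1446 and 1949.8 CPM in treated parental cells, 1442, 1521 and 1676 CPM in untreated SDS22-degron cells and 1279, 1261 and 1983 CPM in treated SDS22-degron cells. Untreated parental libraries were all above the untreated SDS22-degron ones, and the treated SDS22-degron libraries spread from 1261 to 1983 CPM. FASN was lower by 0.48 (-0.79 to -0.17, adjusted p = 0.0195) in untreated SDS22-degron cells. ELOVL6, which elongates palmitate, was lower by 0.35 (adjusted p = 0.0319), from 135, 115 and 117 CPM in untreated parental to 95.1, 97.7 and 96.0 CPM in untreated SDS22-degron cells, also without overlap. Both calls were lost without untreated parental library 1 or untreated SDS22-degron library 1 or 2, and that of ELOVL6 also without library 3 of the latter, with values between -0.47 and -0.39 for FASN and between -0.36 and -0.26 for ELOVL6. FADS1 was lower by 0.27 (adjusted p = 0.0361) and FADS2 higher by 0.26 (adjusted p = 0.0491) in the same comparison, and both calls were lost without untreated parental library 1 or 3 or any untreated SDS22-degron library, and that of FADS2 also without untreated parental library 2 or treated parental library 3. LPIN1, a phosphatidate phosphatase, was higher between the treated lines by 0.60 (adjusted p = 0.00496), though the libraries overlapped. Between the untreated lines its value was 0.35 (adjusted p = 0.117), without overlap of the libraries. The effects of Dox/IAA on LPIN1 in the lines differed by 0.25 (adjusted p = 0.508). ACACA, which makes malonyl-CoA, and SCD passed the test in none of the 5 comparisons, except that with the replicate block ACACA fell by 0.24 in parental cells (adjusted p = 0.0205). SCD ranged from 2246 to 4645 CPM over the libraries.

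**Figure D4:**
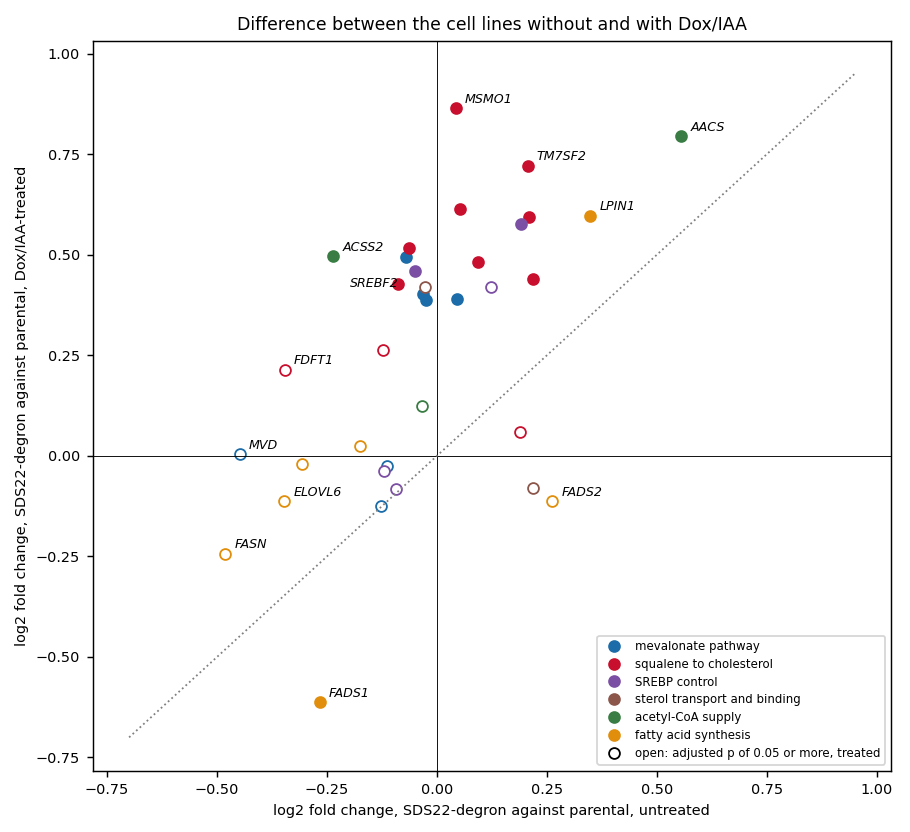
Each point is 1 of the 35 genes, coloured by function, with its log2 fold change between SDS22-degron and parental cells without treatment on the horizontal axis and with Dox/IAA on the vertical axis, and the dotted line marks equal values. Points of genes between squalene and cholesterol lie above 0 on the vertical axis, from 0.06 to 0.86, while AACS is high on both axes and FADS1 is low on both.

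The spread between the treated SDS22-degron libraries was larger in these genes than in most others. In treated SDS22-degron cells the median SD was 0.34 on the log2 scale over the 35 genes and 0.12 over all tested genes, whereas it lay between 0.09 and 0.14 over the 35 genes in the other groups. It was 0.43 in the mevalonate pathway, 0.39 between squalene and cholesterol and 0.31 in fatty acid synthesis. MKI67, a marker of proliferating cells, was at 335, 311 and 294 CPM in the 3 libraries. In treated parental cells library 2 was the lowest for 26 of the 35 genes (39.6% of all tested genes). MKI67 was at 558, 806 and 567 CPM there, so that library 2 was the highest for MKI67. The share of all counts that fell on the 35 genes was 0.991%, 0.806% and 1.24% in the treated SDS22-degron libraries and 1.09%, 0.745% and 1.06% in the treated parental libraries.

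Genes of proliferation moved with the treatment of SDS22-degron cells: all 10 of a list that includes MKI67, TOP2A and CCNB1 fell, with a median log2 fold change of -1.42 (25.5% of all tested genes), and 2 of 10 fell in parental cells (median -0.19, beside 15.7%). Their part in the changes of the lipid synthesis genes was not tested.

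Of 7 LXR receptors and targets, 6 rose and 0 fell in SDS22-degron cells (median 0.84, beside 26% and 25.5% of all tested genes), and 3 rose in parental cells (median 0.55, beside 15.9%). ABCG1, an exporter of cholesterol, was at 1.35, 2.03 and 3.13 CPM in untreated parental cells, 5.62, 3.87 and 6.53 CPM in treated parental cells, 2.84, 1.58 and 1.97 CPM in untreated SDS22-degron cells and 10.1, 9.14 and 7.99 CPM in treated SDS22-degron cells. Treated libraries were above untreated libraries in both lines. Its increase was 2.09 in SDS22-degron cells (adjusted p = 1.07e-06) and 1.29 in parental cells (adjusted p = 0.00123) at low levels. ABCA1, the other main cholesterol exporter, was at 1.69, 1.80 and 2.31 CPM in untreated parental cells, 3.00, 2.53 and 3.30 CPM in treated parental cells, 1.97, 1.79 and 1.75 CPM in untreated SDS22-degron cells and 5.87, 8.52 and 4.20 CPM in treated SDS22-degron cells. It rose by 1.76 in SDS22-degron cells (adjusted p = 6.93e-06), with library 2 the highest of the treated group, whereas library 2 was the lowest for 31 of the 35 synthesis genes. MYLIP, an LXR-induced ubiquitin ligase for lipoprotein receptors, rose by 1.14 and 0.55 in SDS22-degron and parental cells (adjusted p = 3.61e-07 and 0.00326). The order of ABCA1 was not shared: in treated SDS22-degron cells MYLIP was at 31.1, 25.7 and 26.7 CPM, with library 2 the lowest. ABCG1 was highest in library 1 of that group. Of the receptors, NR1H2 rose by 0.32 (adjusted p = 0.0185), and NR1H3 had a value of -0.22 (adjusted p = 0.155) in SDS22-degron cells. Without treated SDS22-degron library 3, 5 of the 7 rose.

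**Figure D5:**
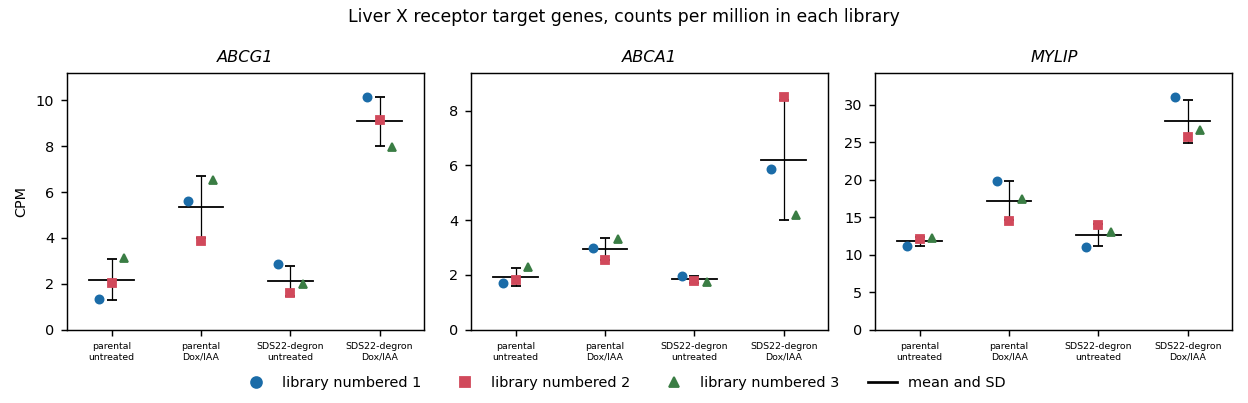
Points are CPM in each library for 3 LXR target genes, marked by library number, with the mean and SD of 3 libraries. All treated SDS22-degron libraries lie above all libraries of the other groups for each of the 3 genes.

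Further genes around the pathway were taken from fixed lists, whose counts varied when each library was left out in turn. The number that rose in SDS22-degron cells was then 7 to 9 for sterol uptake, storage and transfer, and 4 to 6 for SREBP cleavage and degradation. It was 2 to 4 for the isoprenoid branches, 9 to 12 for the further lipogenic genes and 5 to 7 for fatty acid oxidation. Of 11 tested genes of sterol uptake, storage and transfer, 8 rose and 0 fell in SDS22-degron cells (median 0.40, beside 26% and 25.5% of all tested genes), among them GRAMD1C, a membrane sterol transporter, by 1.15, GRAMD1A, of the same family, by 0.60, and LIPA, the lysosomal lipase that frees cholesterol from its esters, by 0.53. In parental cells 2 rose and 0 fell (15.9% and 15.7%). GRAMD1C was at 5.91, 5.47 and 5.03 CPM in untreated and 11.2, 9.09 and 10.2 CPM in treated parental cells. Of 11 genes that cleave SREBPs or degrade their regulators, 6 rose and 1 fell in SDS22-degron cells (26% and 25.5%). MBTPS1, the Golgi protease that makes the first cut in SREBPs, was at 225, 229 and 221 CPM in untreated and 328, 326 and 329 CPM in treated SDS22-degron cells. It rose by 0.54 (adjusted p = 6.5e-07), more than in parental cells (difference 0.41, adjusted p = 0.00324), but from a lower level, since it was lower in untreated SDS22-degron than in untreated parental cells by 0.42 (adjusted p = 4.95e-05). Between the treated lines its value was -0.01 (adjusted p = 0.95). MBTPS1 also lies on chromosome 16. RNF145, a sterol-regulated ubiquitin ligase, rose by 0.48 in SDS22-degron cells (adjusted p = 2.6e-05). ERLIN1, which helps to degrade proteins of the endoplasmic reticulum, fell there by 0.35 (adjusted p = 5.92e-05). In parental cells RNF145 went from 110, 104 and 107 CPM untreated to 147, 130 and 136 CPM treated. ERLIN1 went there from 165, 165 and 158 CPM to 139, 139 and 139 CPM.

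Of 11 genes of the branches that leave the pathway at its isoprenoid intermediates, 3 rose and 5 fell in SDS22-degron cells (26% and 25.5% of all tested genes). PDSS1, which makes the side chain of coenzyme Q, was at 18.8, 18.9 and 18.0 CPM in untreated and 8.31, 6.58 and 5.77 CPM in treated SDS22-degron cells. It fell by 1.43 (adjusted p = 1.33e-07) in SDS22-degron and by 0.71 (adjusted p = 0.000603) in parental cells, and COQ2, which attaches that side chain, fell by 0.73 and 0.41 (adjusted p = 2.46e-06 and 0.00215). RABGGTB, a subunit of the enzyme that prenylates Rab proteins, fell by 0.41 in SDS22-degron cells (adjusted p = 1.64e-05). It was at 158, 147 and 153 CPM in untreated and 136, 135 and 134 CPM in treated parental cells. Of 24 further lipogenic genes tested, 11 rose and 1 fell in SDS22-degron cells (26% and 25.5% of all tested genes) and 6 rose and 1 fell in parental cells (15.9% and 15.7%). DGAT2, which completes triglycerides, rose by 0.99, LPIN2 rose by 0.69, and ACSL5, an acyl-CoA synthetase, fell by 0.70 in SDS22-degron cells. These genes moved the same way in parental cells. There DGAT2 went from 3.80, 5.16 and 5.77 CPM untreated to 11.4, 8.06 and 9.99 CPM treated. LPIN2 went from 23.6, 22.8 and 25.5 to 35.3, 36.1 and 36.2 CPM, and ACSL5 from 133, 114 and 126 to 104, 84.1 and 112 CPM. Of 15 genes of fatty acid oxidation, 7 rose and 5 fell in SDS22-degron cells (26% and 25.5% of all tested genes). CPT1A, the gatekeeper of mitochondrial import, fell by 0.54, and HADH, an enzyme of the mitochondrial cycle, fell by 0.62 in SDS22-degron cells. In parental cells CPT1A went from 113, 122 and 112 CPM untreated to 87.5, 93.9 and 94.2 CPM treated. HADH went there from 46.3, 44.7 and 42.7 CPM to 34.0, 32.7 and 35.6 CPM.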

How the data were processed

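The 35 genes and the gene lists were chosen with earlier results of these data known. RNA of 12 samples was sequenced as stranded poly-A libraries with single reads. The authors deposited whole-number read counts per gene on GRCh38, with each gene's length and GC content in percent, and their processing notes name cutadapt 1.15, STAR 2.5.2b, Bowtie2 2.3.3.1, SAMtools 1.5 and featureCounts 1.5.3, while the strand setting of the counting is not given in the sources used here. From these counts, genes with enough reads (edgeR 4.0.16 filterByExpr, minimum count 10) were scaled by TMM, fitted with 4 group means and tested by edgeR's quasi-likelihood test in R 4.3.3, with Benjamini-Hochberg adjustment over all 16657 tested genes and a threshold of 0.05. All 35 genes are accounted for. By rule, values of each library are given for the 3 highest and 3 lowest called genes in each comparison, those called in the difference between the lines and the SREBP control genes, and at most 3 genes are named from each other list, those with the smallest p in SDS22-degron cells. HMGCS1, SC5D, EBP, NR1H2 and NR1H3 were added after their values were seen. The procedure was tested on simulated counts. Replicates differed beyond counting noise (chi-square per degree of freedom 2.06 to 9.02). The labels call them biological replicates and the series' design text speaks of 3 independent experiments, without tying a library number to an experiment. Same-numbered libraries deviated together (r over 0.1 in each of 3 pairs) between the parental groups (r from 0.12 to 0.25) and between the treated lines (r from 0.10 to 0.14), though not between the other groups. Values with the number as a block are therefore given beside some of the results whose call they change. The common biological coefficient of variation was 7.48%, and the median SE was 0.11 on the log2 scale (0.16 for differences between the lines). Alternatives were DESeq2 1.42.0, a likelihood ratio test, other scalings and filters, a GC correction, a replicate block and leaving out each library. Promoter windows were matched by symbol to RefSeq, and all 35 deposited positions overlapped those of GRCh38.p14.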

Additional observations from a re-analysis of the deposited data

Results flagged for a closer look

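The difference between the effects of Dox/IAA in SDS22-degron and parental cells was itself tested (edgeR's quasi-likelihood test). The effect was larger in SDS22-degron cells for 6.03% of all tested genes and smaller for 8.35%, among the latter all 10 proliferation genes. Given here are 9 of the called genes, from the lipid synthesis genes and those named around the pathway. Among the lipid synthesis genes these were MSMO1 (0.82 on the log2 scale, adjusted p = 0.0179), ACSS2 (0.73, adjusted p = 0.0110), FDFT1 (0.56, adjusted p = 0.0462) and TM7SF2 (0.51, adjusted p = 0.0469). With each library left out in turn, ACSS2 passed the test each time (0.52 to 0.86), MSMO1 missed it without untreated parental library 1 (adjusted p = 0.0544), FDFT1 missed it without any 1 of 8 libraries (highest adjusted p 0.140, values 0.35 to 0.72) and TM7SF2 without any 1 of 7 (highest adjusted p 0.129, values 0.38 to 0.61).

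Of the genes around the pathway, MBTPS1 (0.41, adjusted p = 0.00324) and PDSS1 (-0.72, adjusted p = 0.0175) differed between the lines and did so without each library in turn. ABCA1 (1.15, adjusted p = 0.0450), MYLIP (0.59, adjusted p = 0.0299) and LIPA (0.39, adjusted p = 0.0159) also differed. The call of ABCA1 was lost without any 1 of 10 libraries, that of MYLIP without untreated parental library 3, treated parental library 2, untreated SDS22-degron library 1 or 3 or treated SDS22-degron library 1, and that of LIPA without untreated SDS22-degron library 1 or treated SDS22-degron library 3.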

How the results depend on the processing

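Of the 35 genes, 17 were higher and 1 was lower between the treated lines, 2 and 4 between the untreated lines, 11 and 3 upon Dox/IAA in SDS22-degron cells, 3 and 3 in parental cells, and 4 and 0 in the difference between the lines. Leaving out each library in turn gave, in this order, 9 to 21 and 1 to 5 (median log2 fold change 0.13 to 0.53), 1 to 3 and 0 to 5, 9 to 21 and 3 to 5, 2 to 4 and 1 to 5, and 1 to 13 and 0 to 2 (median 0.12 to 0.51). DESeq2 and the GC correction each called 1 gene higher between the untreated lines, and the GC correction called 5 lower in parental cells. Fitting only the groups compared called 6 higher between the untreated lines. Without the filter on low counts, 2 were lower between the treated lines, 7 lower between the untreated lines, 18 higher in SDS22-degron cells, 9 lower in parental cells, and 18 larger and 1 smaller in the difference. Over all groups, same-numbered libraries correlated above 0.1 in 7 of 18 pairs (r from -0.06 to 0.25), and 4 of 12 libraries correlated best with their own number. With the replicate block, 5 were lower in parental cells, and 8 were larger and 2 smaller in the difference. With the block and the GC correction together these were 7, 11 and 1, and 7 were lower between the untreated lines. The block alone also gave 18 higher between the treated lines, 3 higher and 5 lower between the untreated lines, and 14 higher in SDS22-degron cells. Leaving out both treated libraries numbered 2, an alternative chosen after seeing the data, gave 5 higher between the untreated lines, 23 higher in SDS22-degron cells and 13 larger in the difference. No lipid synthesis gene with an unadjusted p under 0.05 in a comparison changed direction in it, and the cause of these shifts was not tested. With 3 libraries a group, the median SE of a log2 fold change was 0.11.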
